A study of Zea mays with 2 samples.

Results

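The transcripts of the proteasome were compared between 1 endosperm library labelled dek40 and 1 wild-type endosperm library of maize (Zea mays). The genes were taken by their deposited description: 40 were described with the word proteasome, and GRMZM2G019538, which carries the name Dek40 in RefSeq and in published work encodes a proteasome assembly chaperone, was added. All 41 stood at 1 or more in either library, and 40 of them did so in both, out of 41406 genes in the files. The member nearest to that minimum was the alpha subunit gene GRMZM2G080549, and no gene with a matching description fell below it. By description the 41 genes were 15 alpha subunits, 12 beta subunits, 11 subunits of the regulatory particle and 3 assembly or maturation factors.

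The proteasome is the barrel-shaped protease that breaks down proteins tagged with ubiquitin in the cytosol and nucleus. Its 20S core is a stack of rings in which outer rings of alpha subunits gate the entry and inner rings of beta subunits hold the cutting sites. The 19S regulatory particle caps the core: its base of ATPases unfolds the substrate, and its lid of non-ATPase subunits receives and removes the ubiquitin. Dedicated chaperones build the alpha rings and guide the beta subunits onto them, and the factor UMP1 stays with the unfinished core until it matures. In many plants most subunits are encoded by more than 1 gene, and the endosperm, the storage tissue of the kernel, uses the proteasome for protein turnover as other tissues do.

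Both libraries were made from total RNA of endosperm taken 12 days after pollination. The genotype entries read dek40, a name from the defective kernel class of mutants, and wild type. The title of the series and its design text say dek41 instead, and the sample labels were followed. No label gives the allele, the genetic background, the number of kernels pooled or the way the embryo was removed. With 1 library per genotype there was no replicate spread and no test, so "higher" and "lower" describe these libraries alone.

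Levels are given as deposited, in RPKM for dek40 and in FPKM for the wild type; these units count reads or fragments for a fixed gene length and a fixed number of mapped reads. The implied library totals were 14218436 for dek40 and 15669149 for the wild type. The members rested on at least 42 to 4907 reads each in dek40 (median 1136) and 10 to 3891 in the wild type (median 634). Of 25115 genes at 1 or more in both libraries, the median gene was 1.34-fold higher in dek40 as deposited, a shift of 0.42 on the log2 scale. Ratios are therefore log2 of the dek40 level times 0.747 plus a pseudocount of 1, over the wild-type level plus 1, so that 0 stands for the typical gene. Zeins, the storage proteins of this tissue, made up 2.49% of the summed levels in dek40 and 16.1% in the wild type, and their part in the shift was not tested.

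Alpha subunit genes had a higher median ratio of dek40 over wild type than the other proteasome classes, and a single beta subunit gene had the largest ratio of all members. The median log2 ratio was 0.67 over the 15 alpha genes, 0.13 over the 12 beta genes, 0.09 over the 11 regulatory particle genes and -0.02 over the 3 assembly factors, against 0.04 over all 29142 genes at 1 or more in either library. By the 2-fold rule 4 of the 41 members (9.76%) were higher in dek40, where 6.12% of all genes were, and 0 were lower, where 4.82% of all genes were. Those 4 were 3 alpha genes and 1 beta gene. Both the share of higher members and that of all genes depend on the scaling: as deposited, 12 of 41 members (29.3%) were higher by 2-fold, against 14.7% of all genes, and 0 members were lower, against 2.65%.

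**Figure D1:**
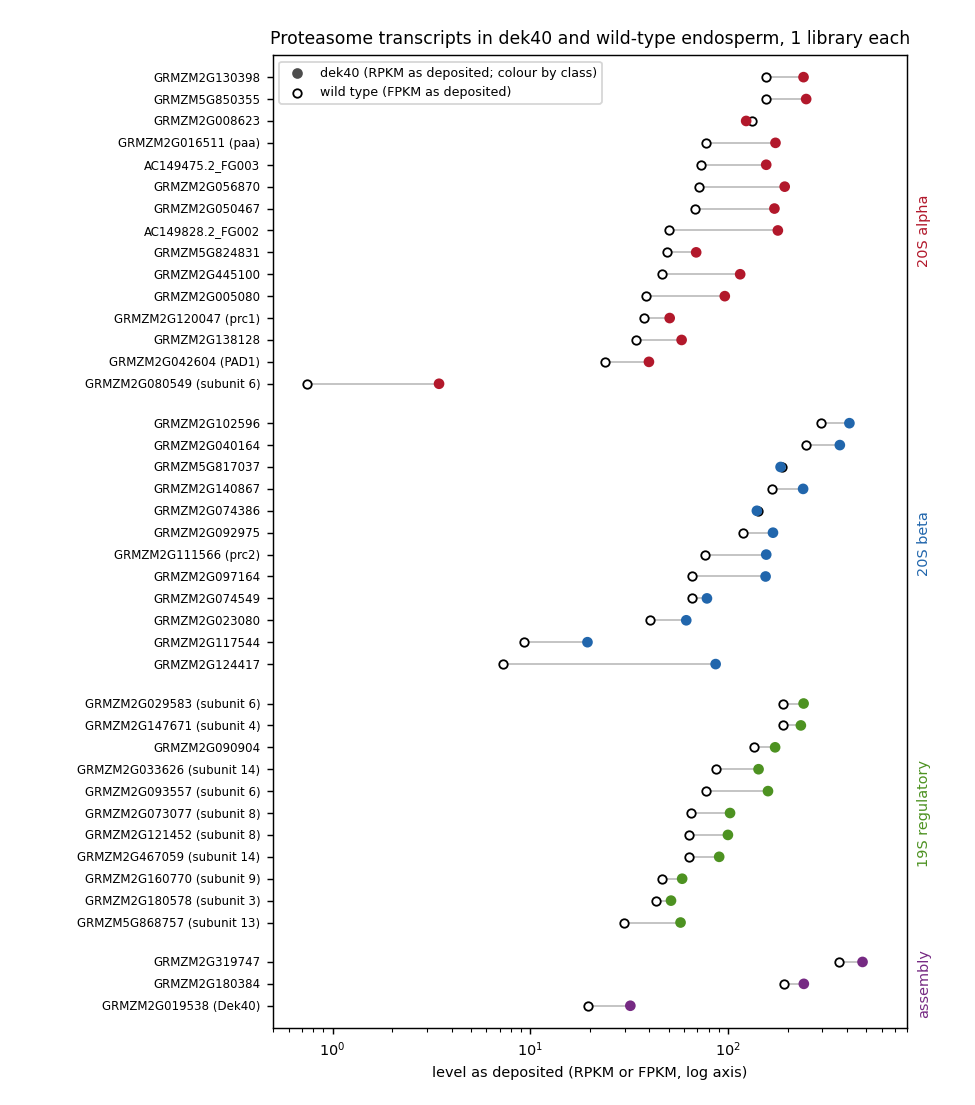
Level of each of the 41 proteasome genes as deposited, on a log axis, with dek40 (RPKM) as coloured points and the wild type (FPKM) as open circles, 1 library each; genes are grouped by class and ordered by wild-type level. The dek40 point lies to the right of the wild-type circle for 38 of the 41 genes, and the longest line belongs to the beta gene GRMZM2G124417. As deposited, 22367 of all 29142 genes at 1 or more in either library were also higher in dek40. After scaling, 30 of the 41 members had log2 ratios above 0, against 15462 of all genes.

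The plot of levels shows a set of abundant transcripts with a few rare ones. The levels ran over 3.45 to 478 RPKM in dek40 (median 142) and over 0.746 to 363 FPKM in the wild type (median 67.8). The order of the genes was much the same in both: Spearman's rho between the levels was 0.91 across the 41 genes. This is a correlation across genes, which share their length and base composition between the libraries and are not replicates. All members together made up 0.444% of the summed levels in dek40 and 0.277% in the wild type. These totals include the zeins, at 2.49% in dek40 and 16.1% in the wild type. After scaling, the summed level of the members was 1.15-fold higher in dek40.

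The alpha subunits form the outer rings of the core. With the pseudocount, the largest alpha ratio belonged to AC149828.2_FG002, which stood at 178 RPKM in dek40 and 50.1 FPKM in the wild type. Its log2 ratio was 1.39, with an exact interval of 1.27 to 1.56. These intervals (Clopper-Pearson, 95%) rest on the smallest whole reads that fit each pair of values, apply to the ratio without a pseudocount, and cover counting error only. GRMZM2G056870 was at 193 RPKM in dek40 and 71.6 FPKM in the wild type. Its log2 ratio of 1.00, with an interval of 0.80 to 1.22, lay on the 2-fold line. The third gene past it, GRMZM2G080549, is described as alpha type 6 and was the rarest proteasome transcript, at 3.45 RPKM in dek40 and 0.746 FPKM in the wild type. It rested on at least 42 reads in dek40 and 10 in the wild type. Its log2 ratio of 1.04 therefore carried a wide interval, 0.77 to 2.95. Without the pseudocount its log2 ratio was 1.79, the largest of the alpha genes.

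A further 5 alpha genes were at least 1.5-fold and less than 2-fold higher, which made 8 of 15 at 1.5-fold or more (53.3%), against 17.3% of all genes. Over all 41 members 13 were higher by 1.5-fold (31.7%) and 0 were lower, where 13.1% of all genes were. GRMZM2G050467 was at 171 RPKM in dek40 and 67.8 FPKM in the wild type, giving a log2 ratio of 0.91. GRMZM2G005080, at 96.2 RPKM in dek40 and 38.5 FPKM in the wild type, and GRMZM2G445100, at 115 RPKM in dek40 and 46.2 FPKM in the wild type, both had log2 ratios of 0.88. GRMZM2G016511 carries the name paa in RefSeq, the plant letter name of an alpha subunit, and was at 174 RPKM in dek40 and 77.7 FPKM in the wild type, giving a log2 ratio of 0.73. The fifth, AC149475.2_FG003, was at 0.67. With the pseudocount the 8 genes lay between 0.67 and 1.39, and their wild-type levels ran up to 77.7 FPKM.

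The other 7 alpha genes fell below the 1.5-fold cut, with log2 ratios of 0.34 and below. The cut does not mark separate groups: the interval of AC149475.2_FG003 (0.46 to 0.89) overlapped that of GRMZM2G138128 (0.16 to 0.53). The most abundant alpha genes were among these 7. GRMZM5G850355 was at 248 RPKM in dek40 and 155 FPKM in the wild type, giving a log2 ratio of 0.26, and it matches 2 RefSeq entries, so its reads may stem from a pair of copies. GRMZM2G130398 was at 241 RPKM in dek40 and 155 FPKM in the wild type, giving a log2 ratio of 0.21. GRMZM2G042604, named PAD1 in RefSeq, was at 39.8 RPKM in dek40 and 23.7 FPKM in the wild type, giving a log2 ratio of 0.31. The ratio nearest to 0 was that of GRMZM2G120047, named prc1, at 0.01, followed by GRMZM5G824831 at 0.06, and the intervals of both spanned 0.

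One alpha gene went the other way. GRMZM2G008623 was at 123 RPKM in dek40 and 132 FPKM in the wild type, giving a log2 ratio of -0.51 with an interval of -0.73 to -0.30. It had the lowest ratio of all 41 members and stayed within 2-fold. The alpha median falls at the lower edge of the group of 8, so it is sensitive to single genes: it was 0.50 without the rare GRMZM2G080549, which a minimum level of 5 removes, and 0.40 with a pseudocount of 5. Summed over the 15 genes, alpha transcripts amounted to 1917 RPKM in dek40 and 1012 FPKM in the wild type. That sum was 1.41-fold higher in dek40 after scaling and 1.89-fold higher as deposited.

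**Figure D2:**
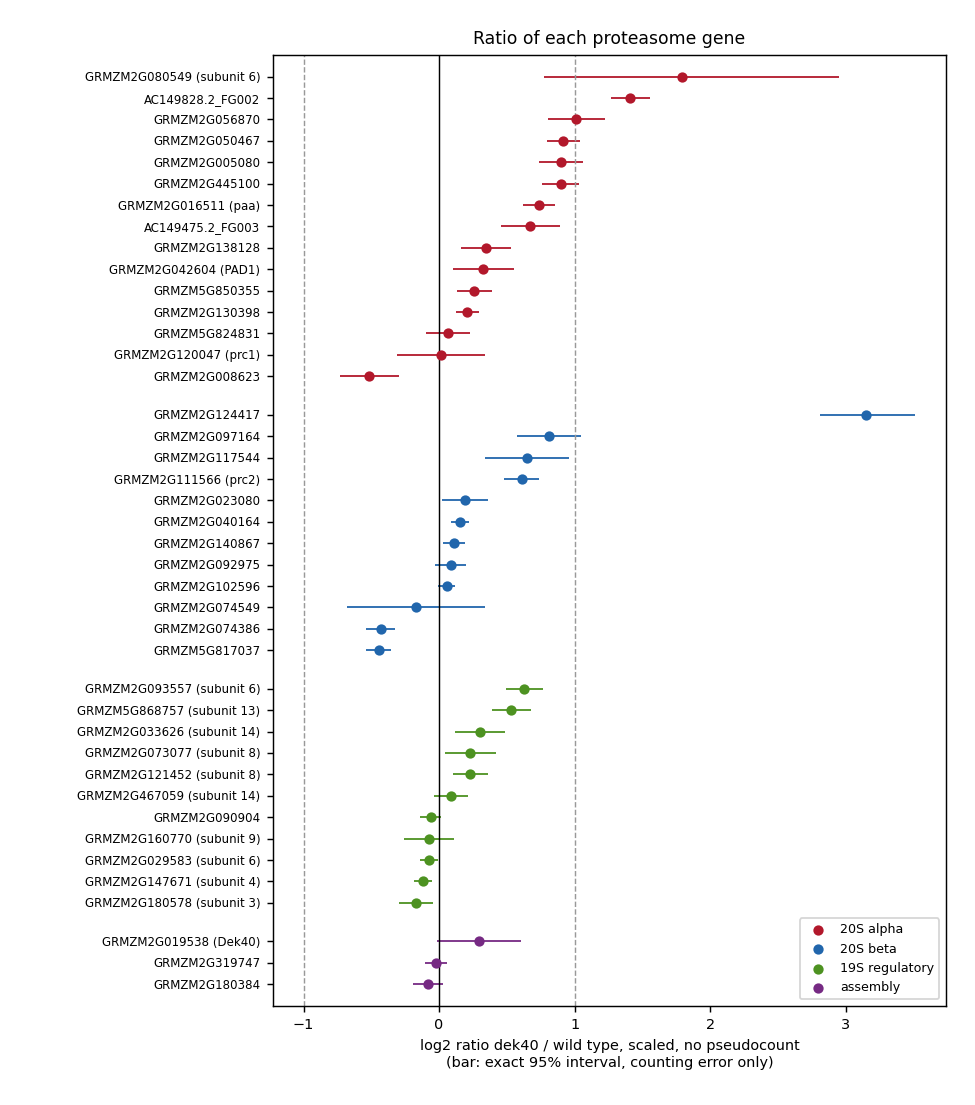
Log2 ratio of dek40 over wild type for each proteasome gene, scaled and without a pseudocount, with bars for the exact 95% interval of counting error; dashed lines mark 2-fold, and genes are ordered by ratio within each class. Of the alpha genes 8 lie at 0.67 or above and 7 at 0.34 or below, with bars that overlap across this gap. GRMZM2G080549 is the highest alpha gene at 1.79, and GRMZM2G124417 lies alone at 3.15.

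The beta subunits form the inner rings and carry the cutting sites. GRMZM2G124417 was at 86.5 RPKM in dek40 and 7.27 FPKM in the wild type, on at least 809 reads in dek40 and 75 in the wild type. Its log2 ratio was 2.99, 7.93-fold after scaling, with an interval of 2.81 to 3.51 for the ratio without a pseudocount. With the pseudocount it ranked 41st from the top of the 29142 genes. No other member came within 1.5 of it on that log2 scale. As deposited its level with the pseudocount was 10.6-fold higher. The gene was the rarest beta transcript of the wild type, 0.513% of the summed beta level there, and made up 4.19% of it in dek40. The deposited description names it only as a beta type, so no beta position can be given for it here.

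Of the other 11 beta genes 0 passed 2-fold in either direction, where 6.12% of all genes were higher and 4.82% lower. The median of these 11 genes was 0.11. Next after GRMZM2G124417 came GRMZM2G097164, at 155 RPKM in dek40 and 65.9 FPKM in the wild type, giving a log2 ratio of 0.80. GRMZM2G111566, named prc2 in RefSeq, was at 156 RPKM in dek40 and 76.4 FPKM in the wild type, giving a log2 ratio of 0.60. GRMZM2G117544, a scarcer gene, was at 19.4 RPKM in dek40 and 9.28 FPKM in the wild type, also at 0.60. These 4 were all in the less abundant part of the class: the 6 beta genes of lower mean level had a median of 0.60, and the 6 of higher mean level one of 0.07. Spearman's rho between wild-type level and ratio was -0.60 in beta genes and -0.43 over the 8585 genes at 20 or more in either library. The wild-type level is the denominator of the ratio, so a negative rho is partly built in. Against the dek40 level, the numerator, rho was -0.31 in beta genes and 0.08 over the 8585 genes. In alpha genes rho was -0.26 against the wild-type level and 0.11 against the dek40 level, and in regulatory particle genes -0.16 and -0.06. Split by mean level, the alpha medians ran opposite to the beta medians, at 0.34 for the lower part and 0.70 for the higher part. The regulatory particle medians were 0.09 and 0.08.

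Of the 6 beta genes of higher mean level, 4 had log2 ratios above 0, up to 0.16, and 2 had ratios below 0, down to -0.44. GRMZM2G102596, the most abundant, was at 410 RPKM in dek40 and 295 FPKM in the wild type, giving a log2 ratio of 0.05 with an interval of -0.01 to 0.12. GRMZM2G040164 was at 367 RPKM in dek40 and 246 FPKM in the wild type, giving a log2 ratio of 0.16 (0.09 to 0.22), and it too matches 2 RefSeq entries. The lowest ratios of the class belonged to GRMZM5G817037, at 184 RPKM in dek40 and 188 FPKM in the wild type, and GRMZM2G074386, at 140 RPKM in dek40 and 141 FPKM in the wild type. Their log2 ratios were -0.44 (-0.54 to -0.35) and -0.43 (-0.54 to -0.33), so these genes had nearly equal deposited levels while the typical gene was higher in dek40. The interval of GRMZM2G074549, at -0.17, was among the widest, -0.68 to 0.34, on at least 70 reads in dek40 and 65 in the wild type. These smallest reads imply a gene length of only 63 bases, so the real reads are probably more and the interval too wide. The summed beta level was 2065 RPKM in dek40 and 1419 FPKM in the wild type, 1.09-fold higher in dek40 after scaling and 1.46-fold as deposited.

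The regulatory particle had the narrowest range of ratios among the larger classes. In it 0 of 11 genes were past 2-fold in either direction, where 6.12% of all genes were higher and 4.82% lower. The log2 ratios ran from -0.17 to 0.62, a span of 0.79, against 1.90 for the alpha genes and 3.43 for the beta genes. Without GRMZM2G124417 the beta span was 1.24, also with 0 of 11 genes past 2-fold. The only gene with a base ATPase in its description, GRMZM2G090904 (subunit 6B, called RPT3), was at 173 RPKM in dek40 and 135 FPKM in the wild type. Its log2 ratio was -0.06, with an interval of -0.14 to 0.01. More ATPases were described with the word protease, and they lay outside the member rule. These were GRMZM2G171604 (subunit S10B), at 146 RPKM in dek40 and 86.2 FPKM in the wild type and a log2 ratio of 0.34, and GRMZM2G038126, another 6B gene, at 59 RPKM in dek40 and 39.2 FPKM in the wild type and a log2 ratio of 0.17. With these 2 added, the 13 regulatory genes had a median of 0.17 and still 0 past 2-fold.

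Among the non-ATPase subunits, the genes of subunit 6, a scaffold of the lid, differed most from each other. GRMZM2G093557 was at 159 RPKM in dek40 and 76.9 FPKM in the wild type, giving a log2 ratio of 0.62 (0.50 to 0.76). GRMZM2G029583, the more abundant one, was at 241 RPKM in dek40 and 189 FPKM in the wild type, giving a log2 ratio of -0.07 (-0.14 to -0.01). The difference of 0.70 between these genes exceeded their counting intervals. In contrast, the genes of subunit 8, another lid scaffold, were alike: GRMZM2G073077 and GRMZM2G121452 stood at 102 and 99.7 RPKM in dek40 and at 65.1 and 63.5 FPKM in the wild type, both at 0.23.

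GRMZM5G868757 encodes lid subunit 13 and was at 57.5 RPKM in dek40 and 29.7 FPKM in the wild type, giving a log2 ratio of 0.52. Subunit 14 is the lid enzyme that cuts ubiquitin off the substrate. Its entry GRMZM2G033626 was at 142 RPKM in dek40 and 86.5 FPKM in the wild type, giving a log2 ratio of 0.30. The entry GRMZM2G467059 was at 90.1 RPKM in dek40 and 63.4 FPKM in the wild type, giving a log2 ratio of 0.09. Both subunit 14 entries share 1 protein accession and 1 RefSeq gene, so they may be parts or copies of the same gene. Leaving out GRMZM2G467059 gave a regulatory particle median of 0.08.

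The lowest ratios of the regulatory particle were small. GRMZM2G180578, lid subunit 3, was at 51.4 RPKM in dek40 and 43.2 FPKM in the wild type, giving a log2 ratio of -0.17 (-0.30 to -0.04). GRMZM2G147671, subunit 4, is a ubiquitin receptor of the particle and was at 233 RPKM in dek40 and 189 FPKM in the wild type, giving a log2 ratio of -0.12 (-0.18 to -0.05). GRMZM2G160770 is named subunit 9, whose yeast and mammalian relatives are assembly chaperones of the base and not part of the finished particle. It was at 58.6 RPKM in dek40 and 46 FPKM in the wild type, giving a log2 ratio of -0.07. Counting it with the assembly factors gave a regulatory median of 0.16 and an assembly median of -0.05.

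The assembly factors were close to the typical gene. The gene named Dek40 (GRMZM2G019538) was at 32 RPKM in dek40 and 19.6 FPKM in the wild type. Its log2 ratio was 0.28 with an interval of -0.02 to 0.60, and 33.2% of all genes had a higher one. As deposited the log2 ratio was 0.68. The name Dek40 has also been published for a mitochondrial RNA-editing protein, so the label need not refer to this gene, and the kind of allele is not given, so its level checks neither. Both UMP1 maturation factor genes were abundant: GRMZM2G319747, the most abundant member of all, was at 478 RPKM in dek40 and 363 FPKM in the wild type, and GRMZM2G180384 was at 241 RPKM in dek40 and 191 FPKM in the wild type. Their log2 ratios were -0.02 (-0.10 to 0.06) and -0.08 (-0.19 to 0.03).

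**Figure D3:**
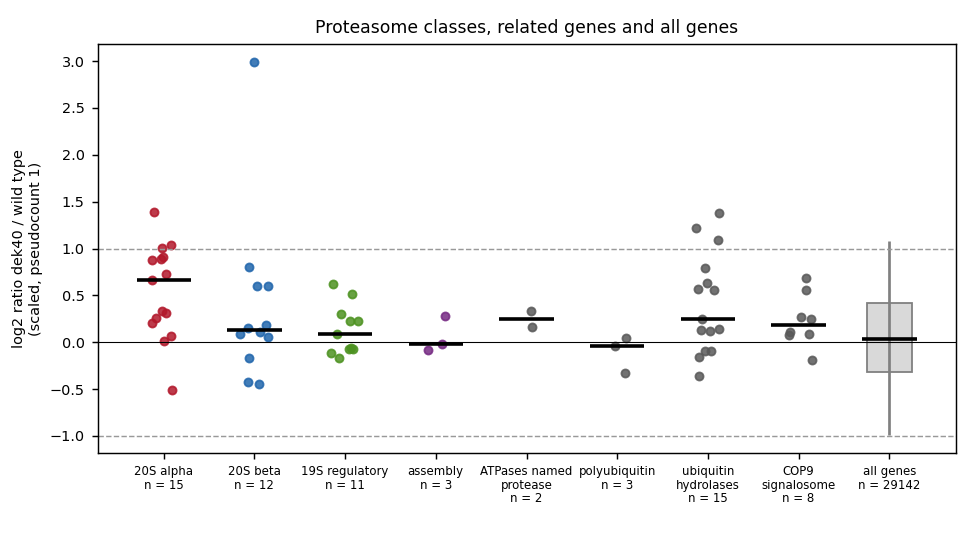
Log2 ratio of dek40 over wild type (scaled, pseudocount 1) for each gene of the proteasome classes and of related gene groups, with the median as a black line; the last column shows all 29142 genes by their median, 25th to 75th percentile (box) and 5th to 95th percentile (line). The alpha median of 0.67 lies above the box, whose upper edge is 0.42, and the other medians lie inside it.

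The alpha median exceeded the beta median by 0.53 and the regulatory median by 0.58 on the log2 scale. These margins were 0.27 and 0.32 with a pseudocount of 5, and 0.37 and 0.42 at a minimum level of 5. Every scaling multiplies all dek40 values by 1 factor, so it can move the margins only through the pseudocount. With the pseudocount of 1 they stayed at 0.53 and 0.58 under every scaling. Of the alpha genes 8 of 15 stood above the highest regulatory gene, 6 lay within the regulatory range and 1 below it. Of the beta genes 2 of 12 stood above that range, 7 within it and 3 below it. The ranges of all classes overlapped, and as genes of a class are not replicates of a condition, no test of the class difference was made.

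The counting intervals gave a similar order. They lay above 0 for 12 of 15 alpha genes, 7 of 12 beta genes, 5 of 11 regulatory genes and 0 of 3 assembly factors, in all 24 of 41 members, and below 0 for 1, 2, 3 and 0 of these genes. Of all genes 25% lay above 0 and 20.5% below, and of the 8585 genes at 20 or more in either library, which are nearer to the members in depth, 37% lay above 0 and 31.9% below. Of those 8585 genes 6.66% were higher by 2-fold and 6.23% lower, and their median was 0.03. Among the 10% of genes with the highest ratios were 7 members, 6 of them alpha genes and 1 a beta gene, and among the lowest 10% were 0.

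**Figure D4:**
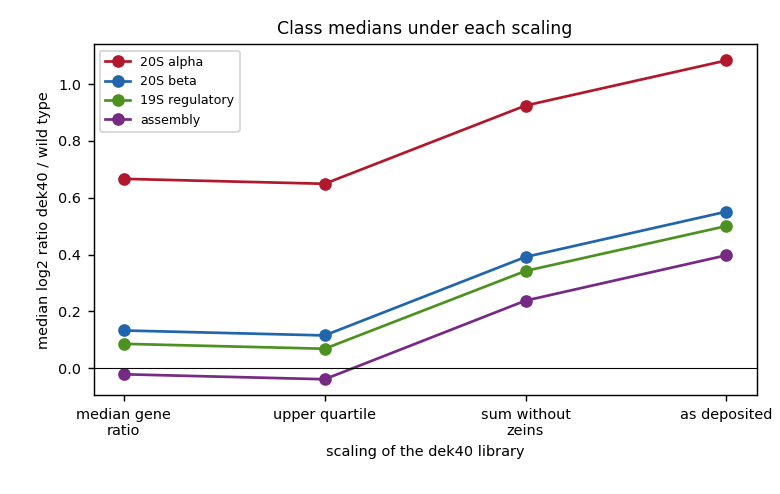
Median log2 ratio of each proteasome class under 4 scalings of the dek40 library (points joined by lines for reading only). All classes move up together toward the deposited values, with the alpha median at 0.67 after median-gene scaling and 1.08 as deposited. The order of the classes is the same under each scaling. Each scaling is 1 common factor, which can change the distances between classes only through the pseudocount.

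As the plot of class medians shows, the position of every class relative to 0 hangs on the scaling. With the values as deposited the medians were 1.08 for alpha, 0.55 for beta, 0.50 for the regulatory particle and 0.40 for assembly, and 8 of 15 alpha, 3 of 12 beta and 1 of 11 regulatory genes were higher by 2-fold (53.3%, 25% and 9.09%), against 14.7% of all genes. The assembly median was below 0 under the median-gene and upper-quartile scalings and above 0 under the other two. Scaling by the summed levels without zeins gave medians of 0.92, 0.39, 0.34 and 0.24 for the classes in the same order.

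Other genes of the ubiquitin pathway were taken by description from a fixed list of 30 genes outside the member rule. Their median was 0.15, with 3 of 30 higher by 2-fold (10%), against 6.12% of all genes, and 0 lower, against 4.82%. Polyubiquitin genes, which supply the tag, had a median of -0.04. The most abundant of the 3, GRMZM2G047732, was at 769 RPKM in dek40 and 589 FPKM in the wild type, giving a log2 ratio of -0.04, and GRMZM2G116689 was lowest at -0.33. The 1 gene of the shuttle receptor RAD23 that carries tagged proteins to the particle, GRMZM2G035417, was at 245 RPKM in dek40 and 158 FPKM in the wild type, giving a log2 ratio of 0.21. NPL4 (GRMZM2G047214), a partner of the segregase that pulls tagged proteins out of complexes, was at -0.19.

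The ubiquitin carboxyl-terminal hydrolases, which remove or recycle ubiquitin, held all 3 genes of the list past 2-fold. Their median over 15 genes was 0.25, and these 3 were 20% of them, against 6.12% of all genes. By the 2-fold rule 0 were lower, against 4.82% of all genes, while 4 had log2 ratios below 0. GRMZM2G113821 was at 21 RPKM in dek40 and 5.41 FPKM in the wild type, giving a log2 ratio of 1.38 (1.20 to 1.89). GRMZM2G447056 was at 4.73 RPKM in dek40 and 0.942 FPKM in the wild type, at 1.22, and GRMZM2G017789, of the L3 type, was at 16.3 RPKM in dek40 and 5.19 FPKM in the wild type, at 1.09. The 2 abundant hydrolase genes went opposite ways within 2-fold: GRMZM2G017086 was at 0.56 and GRMZM2G016323 at -0.36. The COP9 signalosome, a complex whose subunits are related to those of the lid, had a median of 0.18 over 8 genes, 0 of them past 2-fold in either direction. Its range, -0.19 to 0.69, was close to that of the regulatory particle.

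Some lists of cell type markers of the kernel differed between the libraries as a set, and others did not. All 22 zein genes, 6 of 6 basal transfer layer markers and 2 of 2 markers of the embryo-surrounding region were lower by 2-fold in dek40. By that rule 4.82% of all genes were lower and 6.12% higher. The summed transfer layer level was 418 RPKM in dek40 and 2764 FPKM in the wild type. Of 10 embryo markers 4 were lower and 1, a hemoglobin matched through the shared symbol GLB1, was higher, while the 3 aleurone markers had 1 higher and 1 lower. Of 21 green tissue genes 11 reached a level of 1, of which 1 was higher and 3 were lower. Their summed level was 30 RPKM in dek40 and 43.3 FPKM in the wild type, both as deposited. The part of cell composition in the proteasome ratios was not tested, and in bulk endosperm fewer cells of a type and less RNA per cell cannot be told apart.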

How the data were processed

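Endosperm RNA of 1 dek40 and 1 wild-type library was sequenced. The authors deposited RPKM values for dek40 and FPKM values for the wild type, per the file headers. Bowtie2 2.1.0 and the build B73 RefGen v3 are named in the submitters' processing notes; the counting tool, annotation and strand use are not stated in the labels or headers. The columns are headed differently, and the values cannot show whether their units are the same.

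For each of the 41406 genes the ratio of the deposited values was a quotient of whole numbers times 1.10 (relative tolerance 1e-12). The smallest reads that also give a whole gene length summed to 86.3% of the dek40 total and 86.5% of the wild-type total. They are lower bounds and served only for counting intervals, since reads without molecular identifiers are not independent molecules. The steps were tested on simulated data.

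The dek40 values were scaled by 0.747, a pseudocount of 1 was added, and a gene was called at 2-fold. No count model was run. Near-identical copies may share reads. RefSeq names (Zm-B73-REFERENCE-NAM-5.0, a different build, so no coordinates) matched 38 of 41 members. Members and lists were chosen with earlier results of these data known. Named were Dek40, members past 2-fold and, by class, the most abundant and the 3 highest and lowest ratios. Alternatives were other scalings, pseudocounts, minimum levels, member rules and a 1.5-fold rule. The background of genes at 20 or more was chosen after seeing the data. Python 3.11.15, pandas 2.3.3, NumPy 2.4.6 and SciPy 1.17.1 were used.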

Additional observations from a re-analysis of the deposited data

How the results depend on the processing

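The recomputed results were counts, medians and the Dek40 ratio. No median was past 2-fold after scaling, so none could reverse past it, and members past 2-fold were not followed one by one. The assembly median, -0.02 after scaling, was above 0 under both scalings named next. Of the recomputed values 66 of 77 stayed within the main value's interval or within 1.5 times the main count. For a median this interval was read from the ranked ratios of the genes, and for the 3 assembly factors it was their full range. Genes are not replicates, and these intervals are wide. The regulatory median of 0.50 as deposited, against 0.09 after scaling, still counted as staying within. The count of 66 is thus no measure of stability. As deposited, 12 members were higher by 2-fold in place of 4, and the medians were 0.64 for all members (0.23 after scaling), 1.08 for alpha, 0.40 for assembly and 0.55 for the other pathway genes (0.15 after scaling), with Dek40 at 0.68. Scaling by sums without zeins gave 8 members past 2-fold, an alpha median of 0.92 and a pathway median of 0.40. The construction of these scalings shows the cause: each multiplies all dek40 values by 1 factor. A pseudocount of 5 left 2 members past 2-fold, and a 1.5-fold rule gave 13. The number of members lower by the fold rule was 0 under every alternative. Leaving out GRMZM2G124417, chosen after seeing the data, gave 3 higher members, a beta median of 0.11 and an overall median of 0.22. No paired analysis was possible because each group held 1 library. Depth limits GRMZM2G080549 most, on at least 10 wild-type reads, and genes without reads in a library are not analysed here.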
